A study of Mus musculus with 8 samples.

Results

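Fibromodulin (Fmod), prolargin (Prelp), decorin (Dcn), lumican (Lum), biglycan (Bgn), osteoglycin (Ogn), osteomodulin (Omd), asporin (Aspn), keratocan (Kera) and podocan (Podn) encode small leucine-rich proteoglycans (SLRPs). These 10 genes, of 39179 gene identifiers with a count, are described here in astrocytes with and without the potassium channel Kir4.1. Fmod and Prelp were picked because they were higher without Kir4.1 in these same libraries, and the others because they belong to the same family, so the difference between genotypes is given for them as a description. Where a threshold count includes them, it describes the fit and is not used as evidence. The RNA came from spinal cord astrocytes of mixed Swiss-Webster mice at postnatal days 12 to 14. Meninges were removed, the tissue was dissociated with papain, and a flow sorter gathered cells with the Aldh1l1-GFP reporter. Total RNA was amplified with the NuGEN RNA-Seq V2 kit. The 4 control libraries (S1, S2, S6 and S7, labelled WT) came from cre-negative mice. The 4 conditional knockout (cKO) libraries (S3, S4, S5 and S8) came from mice with Aldh1l1-cre and both Kir4.1 alleles floxed. All 8 carry the GFP reporter, and both reporter and cre are driven by Aldh1l1 regulatory elements, so the sorted cells are those that use this promoter. The design text calls the 4 libraries of each group biological replicates. Values per library are listed throughout in the order S1, S2, S6, S7 for controls and S3, S4, S5, S8 for cKO.

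SLRPs are secreted proteins with a core of leucine-rich repeats, to which chondroitin, dermatan or keratan sulfate chains are attached in many family members. They bind collagen and shape how fibrils assemble, and several of them bind growth factors of the TGF-beta family. In the central nervous system, Dcn, Lum and Ogn are best known from the fibroblasts of the meninges and of blood vessel walls. Fmod and Prelp are known mainly from cartilage, tendon and other dense connective tissue.

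Fmod and Prelp are neighbours on mouse chromosome 1. In GENCODE mouse release 21 on GRCm38, Prelp occupies chr1:133910304-133921414 on the minus strand and Fmod chr1:134037254-134048277 on the plus strand, each with 3 exons. The 2 genes are read away from each other across a gap of 115.8 kb. Because they were higher in the same libraries, the 250 bases before the start site of each are shown, as RefSeq gives them on GRCm38.p6 (chr1:134037004-134037253, plus strand, for Fmod and chr1:133921402-133921651, minus strand, for Prelp). Both are printed 5′ to 3′ on the strand of the gene, and capitals mark the only match to any of the 4 motifs searched.
Fmod: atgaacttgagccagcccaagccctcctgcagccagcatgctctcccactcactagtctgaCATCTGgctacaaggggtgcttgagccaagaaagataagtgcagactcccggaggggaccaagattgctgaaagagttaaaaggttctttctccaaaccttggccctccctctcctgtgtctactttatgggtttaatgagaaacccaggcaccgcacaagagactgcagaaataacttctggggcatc
Prelp: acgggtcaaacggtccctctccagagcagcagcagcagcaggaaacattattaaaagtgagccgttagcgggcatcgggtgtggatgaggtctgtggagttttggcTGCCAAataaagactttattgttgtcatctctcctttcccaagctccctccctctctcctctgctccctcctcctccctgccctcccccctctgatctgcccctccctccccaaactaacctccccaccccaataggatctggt
The motifs were the TATA box (TATAAA), AP-1 (TGANTCA), the E-box (CANNTG) and the NFI half-site (TTGGCA), each searched on both strands. The Fmod window held 1 E-box, CATCTG, which starts at position -189 from the start site. The Prelp window held 1 NFI half-site, read as TGCCAA on this strand, at position -144. Of 32544 promoter windows of the same length, 66.2% held an E-box, 12.3% an NFI half-site, 12.3% a TATA box and 6.73% an AP-1 match. The pair therefore shared none of these 4 matches. Their GC contents, 51.2% for Fmod and 55.6% for Prelp, lay near the median of 52.4%.

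The libraries held 13892736 to 25065686 reads in genes, and 17312 to 20470 genes with at least 1 read. Kcnj10, which encodes Kir4.1, was at 1181 to 2306 CPM (gene reads scaled to a common library size, as edgeR's cpm gives them) in the controls and at 27.2 to 37.6 CPM in the cKO libraries, so every library matched its label. The 11 astrocyte markers had a mean level of 9.71 ± 0.268 log2 CPM over the controls (SD, n = 4) and of 9.89 ± 0.114 over the cKO libraries. Of the 11, 2 were called higher by edgeR's quasi-likelihood test, against 0.203% of all genes tested, and 0 lower. In log2 fold change 7 of the 11 were positive, and the median of the 11 was 0.16, below the 2 called genes that follow. Aldh1l1, the gene whose promoter drives reporter and cre, was at 131.4 to 151.5 CPM in controls and 244.5 to 349.8 in cKO (log2 fold change 1.01, SE 0.16, adjusted p = 0.0179 by that test). Aqp4, the water channel of astrocytes, was at 1588 to 2454 and 3373 to 5268 CPM (1.09, SE 0.18, adjusted p = 0.0244 by that test). Their part in the results was not tested. Reads of fibroblast genes were present too. Col1a1, a fibrillar collagen chain, was at 20.5 to 129.7 CPM in controls and 3.13 to 32.3 in cKO, and Col1a2 at 88.9 to 135.8 and 64.4 to 86.6 CPM. Slc6a13, a transporter of meningeal fibroblasts, and Aldh1a2, a retinoic acid enzyme of meningeal fibroblasts, stayed at or below 3.08 and 1.79 CPM in all 8 libraries. In sorted bulk RNA, fewer cells of a type and less RNA per cell cannot be told apart.

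Fmod, a keratan sulfate proteoglycan that binds fibrillar collagen, was higher in every cKO library than in any control. It was at 41.96, 34.4, 10.3 and 14.3 CPM in the controls, and at 151.9, 261.8, 290.2 and 52.6 CPM in the cKO libraries. Underlying these are 187 to 662 reads per control library and 1228 to 5772 per cKO library. The means were 25.2 ± 15.4 and 189.1 ± 108.8 CPM (SD, n = 4 each), a ratio of 7.50 and a log2 fold change of 2.91 with a standard error of 0.53. Neither group was uniform. The highest control was 4.08 times the lowest, the highest cKO library was 5.52 times the lowest, and cKO S8 was 1.25 times control S1.

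Prelp, which carries a basic amino-terminal stretch that binds heparan sulfate and anchors basement membrane to collagen, was also higher in every cKO library. It was at 13.5, 15.6, 13.3 and 19.2 CPM in the controls, and at 56.3, 108.0, 116.5 and 37.97 CPM in the cKO libraries. The means were 15.4 ± 2.75 and 79.7 ± 38.5 CPM, a ratio of 5.18 and a log2 fold change of 2.37 with a standard error of 0.33. The controls were tight, with a coefficient of variation of 17.9% against 60.9% for Fmod, and the lowest cKO library was 1.97 times the highest control. The 4 cKO libraries stood in the same order for both genes, S5 highest, then S4, S3 and S8. The controls did not: S7 was highest for Prelp but next to lowest for Fmod. Prelp shares exon bases with the predicted gene Gm15851, which had 2 reads in cKO S3 and none elsewhere.

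**Figure D1:**
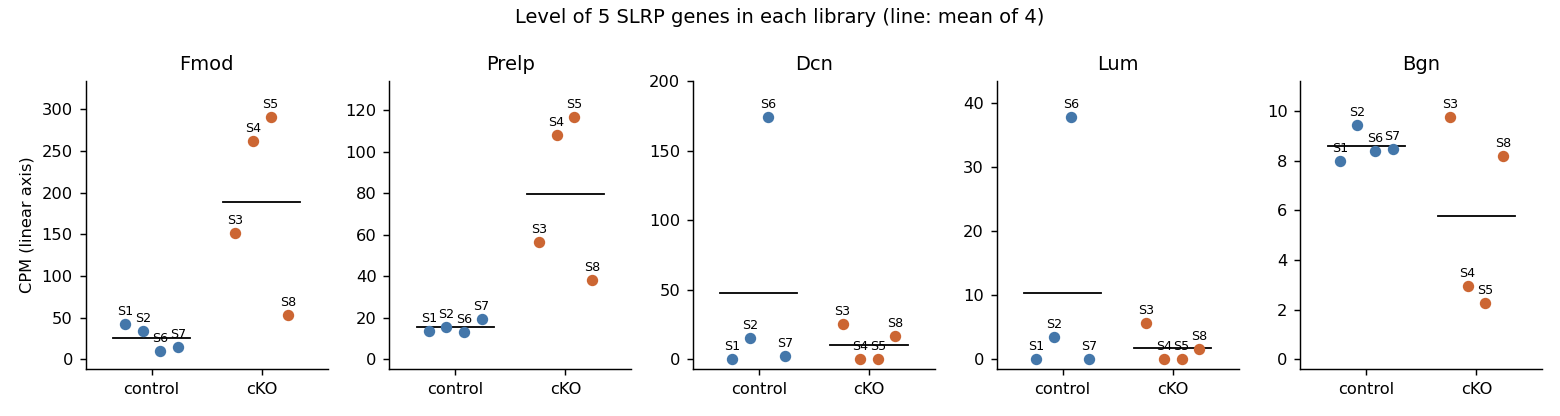
Level in CPM of Fmod, Prelp, Dcn, Lum and Bgn (vertical axes, linear, each with its own scale) in the 4 control and 4 cKO libraries, with one point per library and a line at the mean of 4. All cKO points lie above all control points for Fmod and Prelp, while Dcn and Lum are set by control S6 at 174.1 and 37.8 CPM.

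Among 14757 genes that passed the filter on low counts, edgeR's quasi-likelihood test called 47 at an adjusted p under 0.05, 30 of them higher in cKO. This is 0.318% of the genes tested in either direction and 0.203% higher. Of the 10 SLRP genes, 5 passed the filter, and 2 of these, Fmod and Prelp, were among the 30. They had been picked on this contrast, and nothing is read from that count or from how it moved. Of 8 fits that left out a library, Fmod was past the threshold in 1, without cKO S8, and Prelp in 6, all but those without control S6 or cKO S4. Of 9 other settings, Fmod was past it in 6, not with limma-voom, the Xist level as a covariate or the deposited FPKM, and Prelp in 8, not with the deposited FPKM. Higher levels in all 4 cKO libraries than in all 4 controls were found for 3.39% of genes tested. For reading the counts of gene lists further on, 9.81% of genes tested had an unadjusted p under 0.05 in the edgeR fit, DESeq2 called 2.49% of the genes to which it gave an adjusted p, and limma-voom called 0.325%.

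Dcn, the dermatan sulfate proteoglycan that is the main SLRP of fibroblasts, was present in some libraries of both groups and absent in others. Its level was 0, 15.6, 174.1 and 2.23 CPM in the controls, and 25.2, 0, 0 and 16.6 CPM in the cKO libraries. Control S1 and cKO S4 and S5 had no Dcn read, which allows up to 0.190, 0.136 and 0.171 CPM at 3 reads. The groups overlapped. The log2 fold change of -2.19 had a standard error of 1.61 and turned to 0.83 (SE 1.69) without control S6.

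Lum, a keratan sulfate proteoglycan that regulates fibril diameter, followed Dcn. It was at 0, 3.42, 37.8 and 0 CPM in the controls, and at 5.62, 0, 0 and 1.67 CPM in the cKO libraries. Its log2 fold change was -2.50 (SE 1.71), and 0.69 without control S6. Dcn, Lum and Kera stand in a row on chromosome 10, with Dcn at chr10:97479609-97518143 and Lum at chr10:97565128-97572703, both on the plus strand. Ogn, a further fibroblast-type gene, had 5 reads in control S6, 1 to 3 reads in cKO S3, S4 and S5, and none in the other 4 libraries.

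Bgn, a chondroitin and dermatan sulfate proteoglycan closely related to Dcn, was even in controls and split in cKO. It was at 7.99, 9.46, 8.404 and 8.479 CPM in the controls, and at 9.76, 2.95, 2.28 and 8.18 CPM in the cKO libraries. The low pair, cKO S4 and S5, was the pair with the highest Fmod and Prelp and with no Dcn or Lum read. The groups overlapped, and the log2 fold change was -0.57 (SE 0.46). Of Dcn, Lum and Bgn, 0 were called by edgeR's quasi-likelihood test, DESeq2 or limma-voom, and 0 had an unadjusted p under 0.05.

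The remaining members were close to the counting floor. Omd, which binds mineral in bone, had 1, 2, 2 and 0 reads in the controls and 4, 4, 6 and 11 reads in the cKO libraries, so its groups did not overlap, at 0 to 0.146 and 0.181 to 0.471 CPM. Podn, a SLRP of smooth muscle and other connective tissue cells, had 3, 4, 10 and 23 reads in the controls and 4, 1, 0 and 9 in cKO. Aspn, which binds TGF-beta and collagen, had 6 reads in control S1, 2 in cKO S5, 1 in cKO S8 and none elsewhere. Kera, the keratan sulfate proteoglycan of the cornea, had no read in any library, which allows up to 0.128 to 0.218 CPM at 3 reads. These 4 and Ogn did not pass the filter and were not tested.

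The make-up of the family therefore differed from library to library. Fmod and Prelp together supplied 86.5%, 63.4%, 9.63% and 73.9% of the reads of the 10 genes in the controls, and 83.5%, 99.1%, 99.3% and 76.8% in the cKO libraries. Dcn and Lum together supplied 86.6% in control S6 and at most 24.1% in any other library. Summed over the family, control S6 at 244.8 CPM came close to cKO S3 at 249.4 CPM and exceeded cKO S8 at 117.9 CPM, so the family total did not separate the genotypes. The ratio of Fmod to Prelp reads was 3.11, 2.21, 0.773 and 0.741 in the controls, and 2.70, 2.42, 2.49 and 1.38 in the cKO libraries, overlapping between groups.

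**Figure D2:**
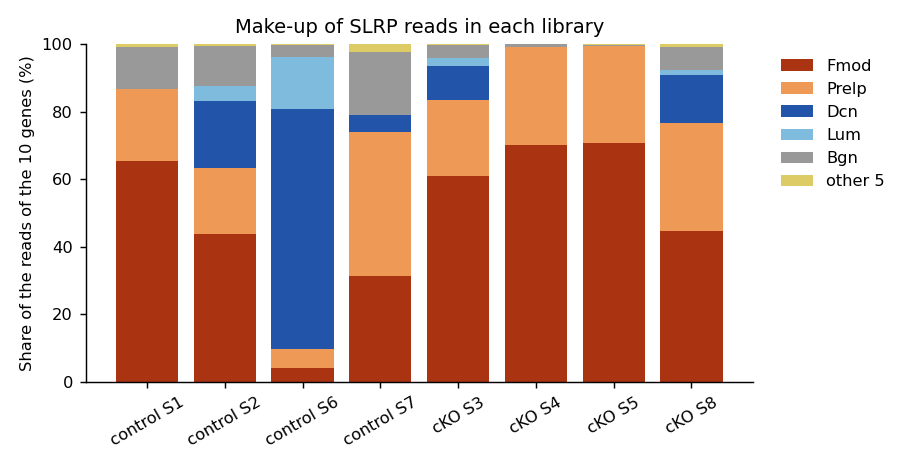
Share of the summed reads of the 10 SLRP genes (vertical axis, percent) that came from Fmod, Prelp, Dcn, Lum, Bgn and the other 5 genes in each library. Fmod and Prelp make up 99.1% and 99.3% in cKO S4 and S5, and Dcn and Lum make up 86.6% in control S6.

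Levels were compared between genes as CPM per kilobase of exon. In controls the order of mean levels was Dcn (8.22 ± 14.4), Fmod (7.63 ± 4.65), Prelp (4.26 ± 0.762), Lum (4.21 ± 7.51) and Bgn (1.41 ± 0.103), and the range of each overlapped that of its neighbour in this order. Podn, the sixth, was at 0.124 and did not reach Bgn. In cKO, Fmod led at 57.2 ± 32.9 CPM per kilobase, and its range overlapped that of Prelp at 22.1 ± 10.7. Every cKO library had more Prelp than any had Dcn, which was next at 1.79 ± 2.16. Bgn at 0.949 ± 0.612 and Lum at 0.744 ± 1.08 followed and overlapped Dcn and each other, and Omd, Podn, Ogn and Aspn stayed at or below 0.133.

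Whether Fmod and Prelp moved with fibroblast-type genes was tested within genotypes. Each library's log2 CPM was taken as a deviation from the mean of its own genotype, which removes the contrast that chose the genes, and was related to Dcn, to Lum, to Ogn and to the mean level of 15 fibroblast markers. Over the 8 libraries, Fmod had r = -0.74 with Dcn (rho = -0.83), r = -0.54 with Lum (rho = -0.51) and r = -0.72 with the fibroblast level (rho = -0.83). Prelp had r = -0.64 with Dcn (rho = -0.66), r = -0.59 with Lum (rho = -0.52) and r = -0.55 with the fibroblast level (rho = -0.67). All 6 coefficients were negative. They share the same 8 libraries and are not independent: within genotypes r was 0.93 for Dcn with Lum and 0.66 for Fmod with Prelp. No positive relation to Dcn, Lum or the fibroblast level was seen in these 8 libraries.

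None of the 8 relations passed the test after adjustment. Exact permutation tests were run within genotypes (two-sided, 576 permutations). The smallest possible exact permutation p was 0.00174 for the fibroblast level. It was larger for Dcn, Lum and Ogn, where libraries without a read were tied within a genotype. By exact permutation test, r gave exact p = 0.0694 for Fmod with Dcn, 0.194 with Lum and 0.0694 with the fibroblast level. For Prelp the exact p was 0.160, 0.118 and 0.189 in the same order. Adjusted over the 8 relations, exact p for r was 0.259 for each of these 6. Exact p for rho was 0.0382 for Fmod with Dcn and 0.0313 with the fibroblast level, and both became 0.153 after adjustment. For rho, exact p was 0.243 for Fmod with Lum, and 0.139, 0.0833 and 0.1250 for Prelp with Dcn, Lum and the fibroblast level. Those were 0.324 for Fmod and 0.222 for each of the 3 Prelp relations after adjustment. Ogn gave r = -0.08 with Fmod (exact p = 0.833, rho = 0.15, exact p = 0.802) and r = 0.21 with Prelp (exact p = 0.604, rho = 0.27, exact p = 0.708), on 11 reads in all.

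The 6 coefficients were negative without the outermost libraries too. Without control S1 and S6, the farthest from the median in Dcn and in the fibroblast level, Fmod had r = -0.60 with Dcn (exact p = 0.333) and -0.56 with the fibroblast level (exact p = 0.375). Without the same libraries, Prelp had r = -0.93 with Dcn (exact p = 0.167) and -0.85 with the fibroblast level (exact p = 0.271). Without control S6 and cKO S3, the farthest in Lum, r was -0.40 for Fmod (exact p = 0.556) and -0.63 for Prelp (exact p = 0.222). For Ogn, without control S6 and cKO S5, r was 0.55 with Fmod (exact p = 0.5) and 0.38 with Prelp (exact p = 0.833).

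**Figure D3:**
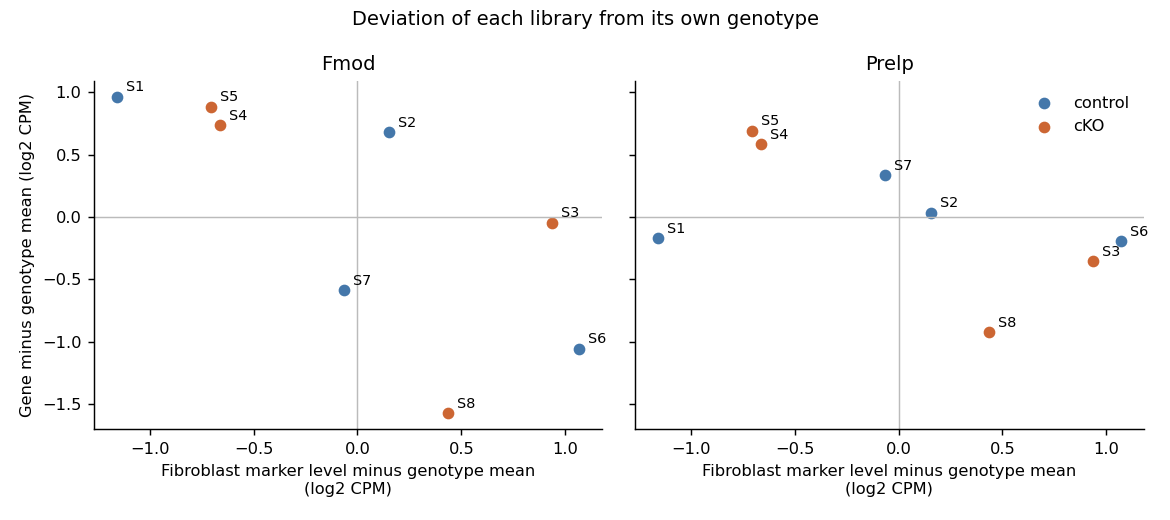
Deviation of Fmod (left) and Prelp (right) from the mean of the own genotype (vertical axis, log2 CPM) against the deviation of the fibroblast marker level (horizontal axis, log2 CPM), one point per library, 4 control and 4 cKO. cKO S4 and S5 lie at the upper left in both panels. Control S1 lies farthest left, at 0.96 for Fmod and -0.17 for Prelp. The coefficient r is -0.72 for Fmod and -0.55 for Prelp.

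cKO S4 and S5, with the most Fmod and Prelp of all, had no read of Dcn, Lum or the fibroblast collagen Col3a1. Control S6, with the most Dcn, Lum and Col1a1, had the least Fmod and the least Prelp of the 8. Control S1, without a Dcn or Lum read, had the most Fmod of the controls but close to the least Prelp.

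The fibroblast level itself overlapped between genotypes. It was -0.82, 0.49, 1.41 and 0.27 log2 CPM in the controls, and 0.91, -0.68, -0.73 and 0.41 in the cKO libraries (exact permutation p = 0.629, n = 4 each, two-sided; adjusted over 10 marker lists 0.857). Of its 15 markers 14 had a read, but only 8 passed the filter on low counts, and all 15 weigh equally in the level. The summed level of the markers ran from 146.2 to 455.7 CPM in controls and from 109.2 to 195.4 CPM in cKO. In cKO S4 and S5, without a Dcn, Lum or Col3a1 read, the sums were 109.2 and 135.9 CPM. Col1a2 alone was at 64.4 and 74.9 CPM there, and which cells its reads came from was not tested. With the fibroblast level as a covariate, the log2 fold change was 2.65 (SE 0.41) for Fmod and 2.12 (SE 0.31) for Prelp. Among the lists of other cell types, the endothelial markers had the lowest exact permutation p, 0.0857 (adjusted 0.381), with 17.1 to 47.6 CPM summed in cKO and 42.3 to 58.8 in controls. The mean levels of the oligodendrocyte and neuron markers differed between cKO and control by -0.73 and -0.56 log2 CPM, each with an adjusted exact permutation p of 0.381. The oligodendrocyte precursor markers differed by -0.94 (adjusted exact permutation p = 0.429). Of these 6 precursor markers, 0 were positive in log2 fold change and 4 had an unadjusted p under 0.05 (9.81% of all genes). The quasi-likelihood test of edgeR called 0 of them and DESeq2 2 (2.49% of all genes). The part of these cell types in the results was not tested.

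The astrocyte marker level was related to both genes in the same way after the values had been seen. Fmod had r = 0.88 with it (exact permutation p = 0.00347, rho = 0.83 with exact p = 0.0104), and 0.89 without control S6 and S1 (exact p = 0.0417). Adjusted over the 10 relations now computed, exact p was 0.0347 for r and 0.104 for rho. Prelp had r = 0.31 (exact p = 0.254, rho = 0.31 with exact p = 0.281) and 0.55 without those libraries (exact p = 0.208), with adjusted exact p of 0.317 for r and 0.352 for rho. Fmod and Prelp themselves had r = 0.66 within genotypes, Dcn and Lum 0.93, Dcn and Bgn 0.72, and Prelp and Bgn -0.86. These 4 pairs are given as a description, and the libraries' shared depth scaling enters each of them.

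None of the 5 other SLRP genes that were tested reached the fold changes of Fmod and Prelp. Of 8 listed, 5 were tested and 0 were called by edgeR's quasi-likelihood test, with 2 at an unadjusted p under 0.05, while DESeq2 called 1, Chadl, and limma-voom 0. Over all genes those shares were 9.81% and 2.49%. Chadl, a chondroadherin-like protein, was at 30.4, 22.5, 27.1 and 48.5 CPM in the controls, and at 19.4, 15.4, 12.8 and 19.4 CPM in the cKO libraries. It was lower in every cKO library, as were 2.94% of genes tested, with a log2 fold change of -0.94 (SE 0.27, adjusted p = 0.228 by edgeR's quasi-likelihood test). It shares exon bases with L3mbtl2. Ecm2, an SLRP-like matrix protein, was at 6.74 ± 2.06 CPM in controls and 13.7 ± 9.57 in cKO, where cKO S5 reached 27.7 CPM (log2 fold change 1.03, SE 0.45, adjusted p = 0.476 by the same test). Optc, which lies 2.3 kb from Prelp, stayed under 1.93 CPM in all libraries, and Tsku (log2 fold change -0.51, SE 0.34) and Chad (-0.40, SE 1.10) overlapped between groups. Epyc had no read. Nyx, at 0 to 0.507 CPM in controls and 0.399 to 1.13 in cKO, and Podnl1 did not pass the filter, so their fold changes were not estimated.

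**Figure D4:**
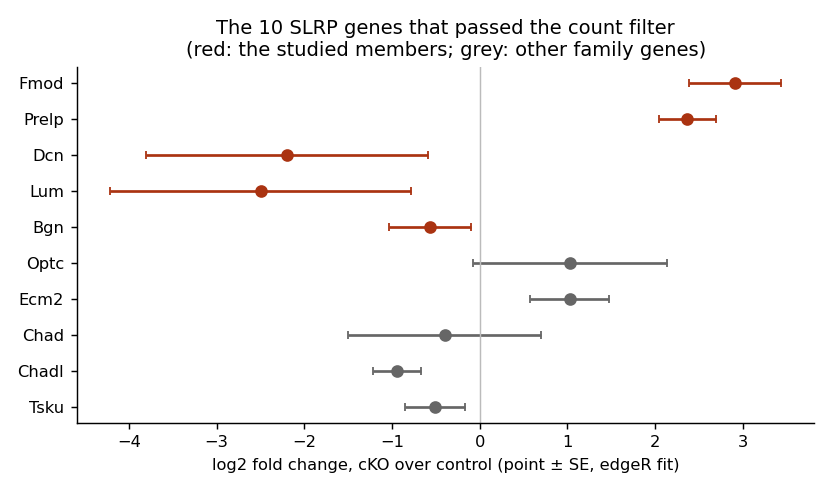
Log2 fold change of cKO over control (horizontal axis, point with standard error from the edgeR fit over 4 libraries a group) for the 5 members (red) and 5 other family genes (grey) that passed the count filter. Fmod at 2.91 and Prelp at 2.37 lie to the right, and Dcn and Lum have standard errors of 1.61 and 1.71.

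Genes that make or bind what SLRPs work on were counted list by list. Of 24 tested genes for fibril collagens and their assembly, 1 was called higher and 0 lower by edgeR's quasi-likelihood test, against 0.318% of all genes called in either direction, with a median log2 fold change of -0.35 against -0.02 over all genes tested. DESeq2 called 4 and limma-voom 1, and 8 of the 24 had an unadjusted p under 0.05, against 9.81% of all genes. The groups did not overlap, with cKO higher, for 4 of the 24, against 3.39% of all genes tested. They did not overlap, with cKO lower, for 1 of the 24, Col1a2, against 2.94% of all genes tested. The gene called was Col5a3, a chain of type V collagen, which sits inside collagen fibrils. It was at 18.0, 19.4, 21.3 and 3.50 CPM in the controls, and at 61.3, 86.5, 192.1 and 121.0 CPM in the cKO libraries. All cKO libraries exceeded all controls, and the log2 fold change was 2.89 (SE 0.48, adjusted p = 0.0244 by edgeR's quasi-likelihood test). Over the 8 fits that left out a library, the quasi-likelihood test of edgeR gave adjusted p of 0.0141 to 0.0818, and the call held in 2, those without control S7 or cKO S3. Of 9 other settings it held in 6, and was lost with the fibroblast level or the Xist level as a covariate and with limma on the deposited FPKM. The other 3 genes with every cKO library higher, named after their values were seen, were Plod1 and Plod2, collagen lysyl hydroxylases, and Loxl1, a lysyl oxidase that cross-links elastin and collagen. Their log2 fold changes were 1.17 (SE 0.26), 0.47 (SE 0.16) and 1.25 (SE 0.34), with adjusted p of 0.0961, 0.327 and 0.196 by edgeR's quasi-likelihood test.

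The fibroblast collagens of that list, Col1a1, Col1a2 and Col3a1, had log2 fold changes of -1.62 (SE 0.64), -0.71 (SE 0.18) and -1.79 (SE 1.48), with adjusted p of 0.415, 0.148 and 0.749 by edgeR's quasi-likelihood test. Of 23 tested enzymes that build glycosaminoglycan chains, 0 were called by edgeR's quasi-likelihood test, 0 by DESeq2 and 0 by limma-voom. An unadjusted p under 0.05 was found for 2 of the 23 (9.81% of all genes), and the median log2 fold change was -0.13. The most abundant per kilobase were Chst1 and Chst2, sulfotransferases that act on keratan sulfate and related chains. Chst1 was at 56.6 ± 7.85 CPM in controls and 64.5 ± 8.30 in cKO, and Chst2 at 88.0 ± 21.4 and 147.6 ± 35.5 (log2 fold change 0.75, SE 0.22, adjusted p = 0.248 by edgeR's quasi-likelihood test).

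Of 11 tested genes for TGF-beta ligands, receptors and latency proteins, 0 were called by edgeR's quasi-likelihood test, 2 by DESeq2 (2.49% of all genes) and 0 by limma-voom, with 4 at an unadjusted p under 0.05 (9.81% of all genes) and a median of -0.21. Ltbp3, a latent TGF-beta binding protein, was at 78.8 ± 6.91 CPM in controls and 77.1 ± 10.3 in cKO. Tgfb2, a TGF-beta ligand, was at 56.9 ± 8.72 and 35.3 ± 10.5 CPM, lower in every cKO library (log2 fold change -0.69, SE 0.23, adjusted p = 0.310 by edgeR's quasi-likelihood test). The largest log2 fold changes of the list in each direction, named after their values were seen, were those of Lrrc32 and Tgfb3. Lrrc32 was lower in every cKO library, at 2.11 to 16.6 CPM in controls and 0 to 0.868 in cKO (log2 fold change -4.01, adjusted p = 0.218 by edgeR's quasi-likelihood test). Tgfb3 overlapped between groups, at 1.98 to 4.97 CPM in controls and 4.85 to 36.8 in cKO (2.08, adjusted p = 0.2275 by edgeR's quasi-likelihood test). Of 8 tested receptors reported to bind SLRPs, 0 were called by edgeR's quasi-likelihood test, 2 by DESeq2 (2.49% of all genes) and 0 by limma-voom, with 3 at an unadjusted p under 0.05 (9.81% of all genes) and a median of -0.27. Lrp1, an endocytic receptor, was at 1370 ± 20.0 and 1674 ± 232 CPM, and Itgb1, the beta1 integrin chain, at 143.6 ± 9.47 and 105.4 ± 28.6 CPM. The 2 that DESeq2 called, named after their values were seen, were Tlr2 and Tlr4, innate immune receptors. Tlr2 was lower in every cKO library, at 8.46 to 15.1 CPM in controls and 0.627 to 3.27 in cKO (log2 fold change -2.28, SE 0.49, adjusted p = 0.0838 by edgeR's quasi-likelihood test). Tlr4 was higher in every cKO library, on 1 to 8 reads per control and 29 to 63 per cKO library (log2 fold change 2.77, SE 0.83, adjusted p = 0.250 by the edgeR test).

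No tested gene around Prelp and Fmod reached their fold changes. Within 1 Mb on either side of the interval, 24 further genes were tested and 0 were called by edgeR's quasi-likelihood test, with 3 at an unadjusted p under 0.05 (9.81% of all genes), 2 called by DESeq2 (2.49% of all genes) and a median log2 fold change of -0.05 in a range of -1.57 to 1.05. On the Prelp side the nearest tested genes were Optc, 2.3 kb away, with a log2 fold change of 1.03 (SE 1.11), and the calcium pump gene Atp2b4, 109.3 kb away, with -0.85 (SE 0.26). On the Fmod side they were Btg2, an antiproliferative gene 26.9 kb away, with 0.49 (SE 0.70), and Chil1, a chitinase-like protein gene 133.9 kb away, with -0.23 (SE 0.33). Kcnj10, the floxed gene, is on the same chromosome, 38.29 Mb beyond Fmod, and how far sequence from the floxed strain extends around it was not tested.

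**Figure D5:**
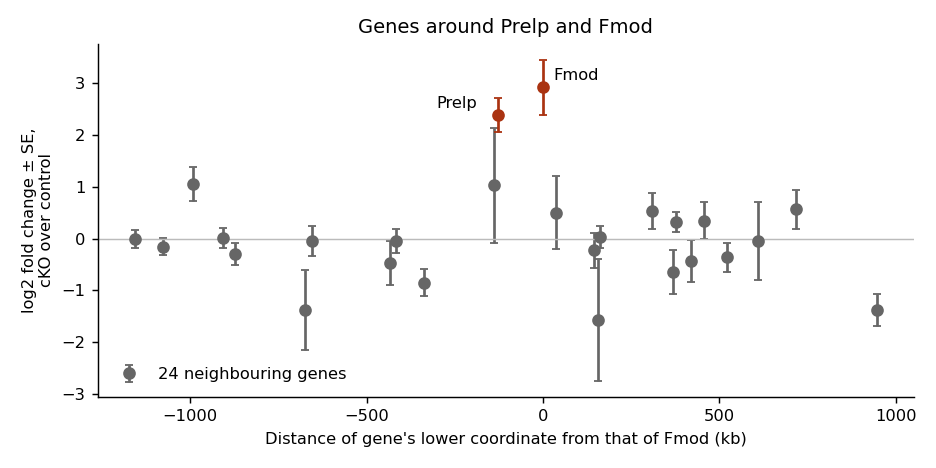
Log2 fold change of cKO over control with its standard error (vertical axis) for Fmod, Prelp (red) and 24 tested neighbours (grey), against the distance of the lower coordinate of each gene from that of Fmod (horizontal axis, kb). The neighbours range from -1.57 to 1.05, below Prelp at 2.37 and Fmod at 2.91.

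The genes most like Fmod and Prelp in their spread within genotypes were not SLRPs. Among 12365 candidates over 8 libraries, r with Fmod was highest for Kcng4 (0.99), a potassium channel subunit, Lfng (0.99), a modifier of Notch receptors, P2ry1 (0.98), a purinergic receptor, Pdgfrl (0.98) and Tmx1 (0.98). Pdgfrl was at 12.2, 10.9, 8.51 and 8.57 CPM in the controls, and 18.5, 22.7, 22.1 and 15.2 CPM in the cKO libraries, and Kcng4 overlapped between the genotypes at 29.9 to 76.7 and 28.9 to 97.1 CPM. With Prelp, r was highest for Gstz1 (0.97), Alg2 (0.97), Arc (0.95), Glrx5 (0.95) and Snph (0.95). Fmod ranked 714 in likeness to Prelp and Prelp ranked 1148 in likeness to Fmod. These genes are the top of a ranking of 12365 over only 8 libraries, given as a description and not tested.

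The authors' deposited table gave mean scaled counts of 464.6 in control and 3478 in cKO for Fmod, and 283.8 and 1466 for Prelp. Its shrunken log2 fold changes were 1.57 (SE 0.37) and 1.96 (SE 0.28), so Prelp stood above Fmod there, while Fmod stood above Prelp in the edgeR fit. Bgn was at -0.41 (SE 0.34) in the authors' deposited table, and the 7 other members had no adjusted p in it. Mean deposited FPKM were 13.9 and 79.7 for Fmod, 8.41 and 59.1 for Prelp, 33.9 and 7.42 for Dcn, and 12.1 and 5.36 for Bgn, in control and cKO. On the log2(FPKM + 0.1) scale, limma gave log2 fold changes of 2.48 (SE 0.64) for Fmod and 2.64 (SE 0.40) for Prelp, so which of them differed more depended on the measure.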

How the data were processed

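The authors deposited whole-number counts per gene for 8 libraries, FPKM per library and a DESeq2 table. Per the submitters' processing notes, FastQC 0.11.4, TopHat2 2.0.11, Bowtie2 2.2.3, HTSeq 0.6.1p1, DESeq2 1.14.1, Cuffnorm and Cufflinks 2.2.1 were used with build GRCm38; strand use is not given in the sources used here, so reads of overlapping genes cannot be told apart. Per the file headers, the authors' table holds scaled group means (a signal), log2 fold changes, standard errors and test statistics (scores), and p-values. Only 3 of 8 deposited FPKM columns followed the counts of the library they are named for over 13239 genes, although all 8 followed their own group. FPKM were therefore compared only between groups, as group means and with limma over the 8 columns.

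The 5 summary lines of each count file, 56.4% to 61.7% of reads, name no gene and were left out. Counts were fitted with edgeR 4.0.16 in R 4.3.3 (TMM, filterByExpr, quasi-likelihood test, Benjamini-Hochberg over 14757 genes), which was tested on simulated data; DESeq2 1.42.0 and limma 3.58.1 were alternatives, with other filters, scalings, covariates and each library left out. The standard error of each edgeR log2 fold change was derived from the test. It is the absolute log2 fold change over the square root of the quasi-likelihood F statistic. DESeq2 gave larger standard errors for Dcn and Lum, 2.97 and 3.23. CPM use TMM-adjusted library sizes, and log2 CPM a prior count of 2. Floors are 3 reads and cover counting error only. Symbols were matched for 37607 of 39179 identifiers through GENCODE mouse release 21, and promoters for 8 of 10 members. Python 3.11.15 with scipy 1.17.1 ran the permutation tests and matplotlib 3.10.9 drew the plots.

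The members, the gene lists and the tests were chosen with earlier results of these data known. Named genes were all members and other SLRP genes, Kcnj10, the defining fibroblast markers, the called genes of each related list or else the 2 most abundant, called neighbours or else the nearest 2 tested on each side, and the 5 genes most like Fmod and Prelp among genes with a mean of at least 1 CPM.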

Additional observations from a re-analysis of the deposited data

Results flagged for a closer look

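In 5 of 40 groups of 4 libraries, 1 library stood apart from the others by Dixon's criterion. Its rate of about 1 in 20, or 2 of 40, holds for normally distributed values. A group with reads in only 1 library passes it whatever the count, so the 5 are listed without comparison to that rate. Dcn was at 174.1 CPM in control S6 against 0 to 15.6 CPM in the other controls. Lum was at 37.8 CPM in control S6 against 0 to 3.42 CPM. Ogn was at 0.275 CPM in control S6, which is 5 reads, against 0 in the other controls. Aspn was at 0.380 CPM in control S1, which is 6 reads, against 0 in the other controls. The mean level of the mural cell markers was 0.743 log2 CPM in cKO S4 against -0.28 to -0.25 in the other cKO libraries.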

How the results depend on the processing

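Fmod and Prelp were higher in cKO in all 17 alternatives each, with log2 fold changes of 2.48 to 3.27 and 2.12 to 2.64. Dcn and Lum had no stable direction, running from -3.07 to 0.83 and from -4.14 to 0.69. The relation to the fibroblast level stayed negative in all 12 alternatives, at -0.82 to -0.56 for Fmod and -0.83 to -0.38 for Prelp, and 0 members beyond Fmod and Prelp were called in any of 16. The 47 genes called became 87 with at least 1 count in any library, 84 with at least 10 counts in every library, 25 with the fibroblast level and 28 with the Xist level as a covariate, 384 with DESeq2, and 4 to 45 when a library was left out. Without composition scaling, 48 were higher and 14 lower, against 30 and 17. The 1 call in the related lists became 3, 3, 0, 0 and 9 under the same 5 alternatives and 0 to 2 without a library. The 0 neighbours called became 1, 1 and 2 under the 2 filters and DESeq2. The marker lists at an exact p under 0.05 went from 0 to 1, the endothelial markers, without cKO S3, and stayed at 0 to 1 over all libraries left out. The causes were not tested. Genes under about 10 reads, which include Ogn, Omd, Aspn and Kera, are limited by depth. No paired analysis was run, because the labels used here name no litter or pair and the library numbers run across both groups.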
